A study of Mus musculus with 12 samples.

Results

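CT26, a mouse colon carcinoma line, was exposed to both the chemokine CX3CL1 and the cytokine IFN-γ. The mRNA of 3 cultures so treated was compared with that of 3 untreated cultures. These are 6 of the 12 libraries of the series, chosen by their treatment label alone, and the remaining 6 received CX3CL1 alone or IFN-γ alone, 3 each. The agents were given as recombinant mouse proteins at 2 µg/ml CX3CL1 and 100 ng/ml IFN-γ for 8 hours. The labels name CX3CL1 and IFN-γ only and give no order of addition. The study's figure legend names the same agents, whereas its text describes IFN-γ and TNF-α given before CX3CL1. The libraries were labelled as biological replicates, and all cultures were of this 1 line. Levels were gene-level TPM (transcripts per 1e6 transcripts), which are per length and so can be set side by side between genes, and differences were taken between group means of log2(TPM + 1), which understates the change of genes at low levels. Of the 23636 symbols in the table, 11878 passed a filter on the mean level, set at 0.2 TPM across all 12 libraries. These were tested with limma, and a gene was called at an adjusted p below 0.05.

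IFN-γ signals through the receptor chains IFNGR1 and IFNGR2 and the kinases JAK1 and JAK2, acts through GAS elements and induces IRF1, the guanylate-binding proteins and the antigen presentation machinery. CX3CL1 (fractalkine) is a chemokine whose classical receptor is CX3CR1, and it can also bind integrins. Inflammatory chemokines such as CXCL1 are classical targets of NF-kB, a transcription factor family that binds kappa-B elements, and interferon and NF-kB signals meet on many promoters of inflammatory genes.

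Within the combined group the pairwise Pearson correlation of log2(TPM + 1) over the genes tested was 0.988 to 0.995, and within the untreated group it was 0.991 to 0.996. Along the first principal component, with 55.8% of the variance, the combined libraries lay between 17.8 and 32.1 and the untreated libraries between -37.6 and -27.4. The labelled cell type was checked against colon and epithelial markers. VIM, a mesenchymal intermediate filament gene, was abundant at 4034, 4831 and 3658 TPM without treatment, KRT18 and KRT20 stood at 34.1, 48.3 and 53.6 TPM and 16.8, 10.9 and 10.8 TPM. EPCAM was listed at 0 in all 6 libraries and KRT8, KRT19, CDX1, CDX2, VIL1, MUC2 and LGALS4 did not pass the filter on low levels. VIM was called lower with both agents, at 1684, 3135 and 2260.5 TPM, but not without the first or the third combined or the second untreated library. Of the epithelial and colon genes, KRT18 was called lower at 24.3, 21.9 and 18.4 TPM and the cadherin CDH17 higher. KRT20, at 8.69, 6.59 and 6.44 TPM with both agents, was not called (adjusted p = 0.0504), but was called lower under 7 of 14 alternatives, both scalings and the block among them. In bulk RNA, fewer cells of a type and less RNA per cell cannot be told apart. Of the 22 leukocyte markers, 9 were listed at 0 in all 6 libraries, among them CD3E and ADGRE1. The summed level of the list was 10.5 to 18.3 TPM without treatment and 11.1 to 34.5 TPM with both agents, most of it CD68 at 16.2, 8.57 and 10.5 TPM untreated and 27.0, 10.3 and 10.1 TPM treated. Endothelial and fibroblast markers summed to 9.04 to 15.7 TPM untreated and 10.5 to 18.5 TPM treated, with 1 of 3 tested called higher, the proteoglycan DCN, beside 8.21% of all genes tested. The part of these levels in the results was not tested. CX3CR1, below the filter, had 0.0439, 0.0596 and 0.122 TPM without treatment and 0.154, 0 and 0.139 TPM with both agents. These are mRNA levels, whereas the study reported high CX3CR1 protein on cultured CT26 cells by flow cytometry. CX3CL1 itself was at 0.0178, 0 and 0 TPM and at 0 in all 3 combined libraries. Among the other candidate CX3CL1-binding genes, ITGB1 stood at 498, 437 and 434 TPM untreated, whereas ITGB3 and ITGA4 did not pass the filter. The list they belong to also holds metalloproteinases. Of its 4 tested genes 0 were called, where 11.9% of all genes tested were, so that this count says nothing about the group. The ubiquitous ribosomal gene RPL26 was at 0 in every library, so a value of 0 means that the table lists no signal and not that the transcript is missing.

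The combined treatment raised 975 genes (8.21% of those tested) and lowered 442 (3.72%), and the rises were the larger. These are the shares to set beside the counts of list members called against no treatment below. The log2 difference was at least 3 for 85 raised genes and for 0 lowered ones, and at least 2 in size for 182 raised against 2 lowered genes, CLDN6 and COL3A1. At the median, genes called higher differed by 0.85 and genes called lower by -0.59, against 0.02 over all genes tested. The libraries of the groups did not overlap for 971 of the genes called higher and 439 of those called lower, beside 31.2% of all genes tested that did not overlap, 18.6% higher and 12.6% lower. The balance of directions depended on scaling, since quantile normalization called 797 genes higher and 888 lower. Without the third combined library the count fell from 1417 to 924 genes.

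**Figure D1:**
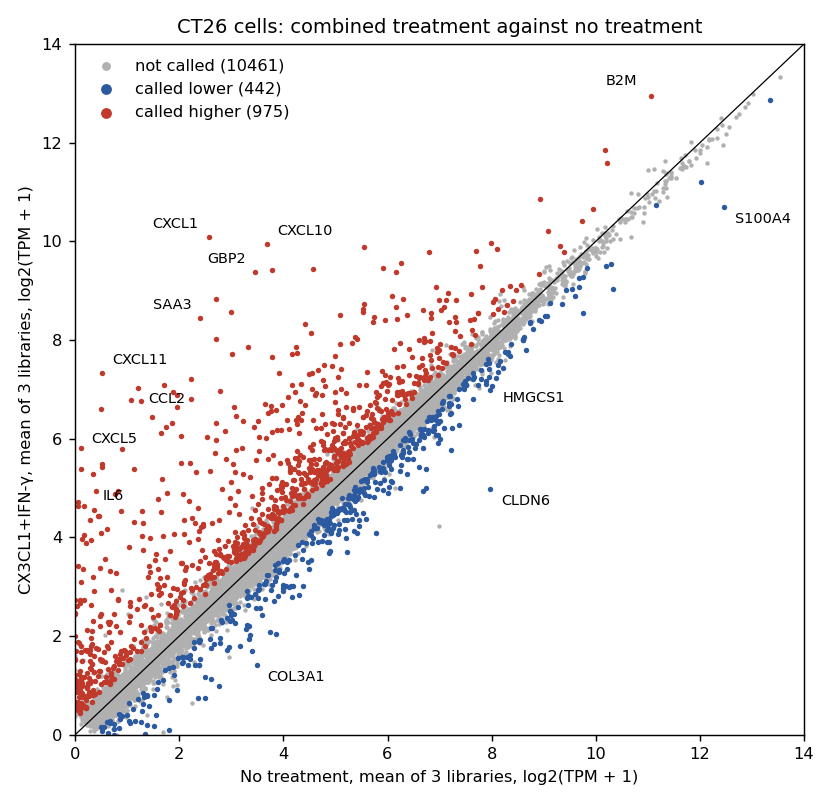
Each point is 1 of the 11878 genes tested, plotted by its mean level of 3 libraries as log2(TPM + 1) without treatment (horizontal axis) and under CX3CL1+IFN-γ (vertical axis), and the line marks equal levels. Red points were called higher (975) and blue points lower (442), and CXCL1, CXCL10 and GBP2 rose from low or moderate levels to the range of abundant transcripts, whereas CLDN6 and COL3A1 lie farthest below the line among the labelled genes.

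On the log2(TPM + 1) scale the largest difference of all genes belonged to CXCL1, although the ratio of mean TPM was higher for others, CXCL5 among them. CXCL1 is a neutrophil-attracting chemokine that signals through CXCR2. It was listed at 6.70, 4.03 and 4.15 TPM without treatment and 1551, 499.9 and 1218 TPM with both agents (log2 difference 7.39, SE 0.38, adjusted p = 2.4e-07), a mean of 4.96 ± 1.51 (SD, n = 3) against 1089.6 ± 537 TPM (SD, n = 3). The groups were far apart, although the second treated culture was well below the other two. The other CXCR2 ligands that passed the filter rose as well, 5 of 5 in all, beside 8.21% of all genes tested, with a median log2 difference of 4.50. CXCL5 was at 0.186, 0.0252 and 0.0282 TPM before and 68.9, 33.1 and 62.5 TPM after (log2 difference 5.63, SE 0.35, adjusted p = 5.0e-07). CXCL3 went from 0.0697, 0 and 0.0529 TPM to 16.3, 19.4 and 36.2 TPM (log2 difference 4.50, SE 0.28, adjusted p = 5.0e-07). CXCL2, listed at 0 in the 3 untreated libraries, was at 4.07, 3.98 and 8.80 TPM (adjusted p = 5.7e-06). PPBP, whose product is processed to a CXCR2 agonist, rose by 1.97 on the log2 scale (adjusted p = 5.0e-07). In every combined library each of these 5 genes lay above every untreated library, beside 18.6% of all genes tested. The 5 genes lie close together on chromosome 5, between the outermost gene ends at chr5:90759360-90905938 (GRCm38, which is mm10), and CXCL1, CXCL2 and CXCL3 are close relatives in sequence, so reads may be shared among them to an extent that is not known here.

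The stretches upstream of 2 of these genes, and of an interferon-induced chemokine and a guanylate-binding protein described below, are shown because their letters hold kappa-B or ISRE core matches. None of these stretches holds a GAS match. They come from RefSeq promoter windows on GRCm38.p6 and are written 5′ to 3′ on the strand of the gene, with matches to the kappa-B consensus or to the ISRE core GAAANNGAA, on either strand, in capitals.
CXCL1: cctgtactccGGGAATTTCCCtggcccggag
CXCL2: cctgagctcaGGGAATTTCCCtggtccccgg
CXCL10: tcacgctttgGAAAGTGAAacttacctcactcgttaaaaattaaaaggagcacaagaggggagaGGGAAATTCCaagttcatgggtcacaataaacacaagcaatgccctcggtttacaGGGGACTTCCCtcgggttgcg
GBP2: ctcttttagtTTCACTTTCactgtcttaa
The CXCL1 stretch lies at chr5:90891164-90891194 on the plus strand and starts 81 bases before the start site, and the CXCL2 stretch lies at chr5:90903792-90903822 on the plus strand, 107 bases before it. Both hold the same run of 11 capital letters, which matches the kappa-B consensus on both strands with an offset of 1 base. The CXCL10 stretch at chr5:92348973-92349112 on the minus strand holds an ISRE core first and kappa-B matches after it, 2 of them overlapping, and the GBP2 stretch at chr3:142620595-142620623 on the plus strand holds an ISRE core read on the opposite strand. In the 250 bases before the start site, the kappa-B consensus was found in 7.25% of all 32851 promoter windows of the table, the ISRE core in 7.13% and the GAS sequence TTCNNNGAA in 7.02%. Of the genes called higher, 753 had a window, and of their 973 windows 12.9% held the kappa-B consensus, 14% the ISRE core and 10.2% GAS. For genes called lower the shares were 8.94%, 5.05% and 5.73% of 436 windows, and for genes not called 8.52%, 5.50% and 5.58% of 10393 windows. These are matches of letters and no test was made of them.

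The CXCR3 ligands, which attract activated T cells and are classical IFN-γ targets, rose together, 3 of 3. CXCL11 was listed at 1.04, 0.105 and 0.117 TPM untreated and 138, 69.9 and 271 TPM treated (log2 difference 6.67, SE 0.56, adjusted p = 5.5e-06). CXCL10 went from 9.46, 11.7 and 14.4 TPM to 532, 448 and 1965 TPM (log2 difference 5.94, SE 0.62, adjusted p = 2.8e-05), and the third treated library stood well above the other two. CXCL9 reached 3.32, 1.02 and 2.42 TPM from 0.0194, 0 and 0 TPM (log2 difference 1.62, SE 0.26, adjusted p = 0.00082), far below the level of its 2 neighbours on chromosome 5 (chr5:92321347-92365485). Of the other chemokines 11 of 25 passed the filter, with 5 called higher and 1 lower. CCL2, which attracts monocytes, was at 2.85, 0.669 and 0.374 TPM untreated and 162, 55.7 and 170.5 TPM treated (log2 difference 5.82, SE 0.54, adjusted p = 1.2e-05). Its relative CCL7 rose by 4.38, the T cell chemoattractant CCL5 by 3.31 from 8.67, 6.48 and 7.55 to 64.2, 69.3 and 129 TPM, and CCL4 by 1.41 on the log2 scale. CCL20, the ligand of CCR6, was at 0.0992, 0.337 and 0.226 TPM without treatment and 20.2, 15.3 and 22.4 TPM with both agents (log2 difference 4.04, SE 0.25, adjusted p = 5.0e-07). CCL9, a CCR1 ligand, was the 1 chemokine that fell, from 4.31, 5.04 and 5.95 TPM to 1.11, 1.46 and 1.04 TPM (log2 difference -1.46, SE 0.13, adjusted p = 6.6e-06).

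Of 28 cytokine and growth factor genes 16 passed the filter and 12 of these rose, while the transcripts of IL10, TNF and IL12A were listed at 0 in all 6 libraries. IL6 was at 0.238, 0.203 and 0.407 TPM untreated and 24.9, 13.6 and 29.6 TPM treated (log2 difference 4.14, SE 0.22, adjusted p = 3.0e-07). IL1A, an alarmin, went from 0.0602, 0.0205 and 0 TPM to 8.27, 2.93 and 4.05 TPM (log2 difference 2.47, SE 0.30, adjusted p = 8.8e-05), whereas IL1B stayed below the filter. LIF, an IL6-family cytokine, was at 8.48, 6.75 and 7.06 TPM untreated and 46.6, 23.9 and 47.0 TPM treated (log2 difference 2.19, SE 0.25, adjusted p = 6.9e-05). Growth factors of myeloid cells were among those called higher: CSF1 was already abundant at 233, 212 and 230.3 TPM and was at 625, 413 and 572 TPM with both agents (log2 difference 1.23), CSF2 was at 0.137, 0.232 and 0.363 TPM untreated and 4.43, 0.881 and 2.40 TPM treated. CSF3, listed at 0 in the untreated libraries, was at 9.39, 1.496 and 2.66 TPM. IL15, which sustains NK and memory T cells, went from 2.09, 1.46 and 0.774 to 9.33, 13.7 and 23.2 TPM (log2 difference 2.699, adjusted p = 0.00013). IL18BP, the secreted inhibitor of IL18, went from 1.79, 2.11 and 2.81 to 14.3, 12.8 and 18.7 TPM (log2 difference 2.33). The death ligand TNFSF10 went from 0.0871, 0.00740 and 0.0992 to 1.96, 3.90 and 10.3 TPM. TGFB1 rose by 0.92 on the log2 scale (adjusted p = 0.0054). VEGFA was not called, at 80.4, 69.6 and 70.6 TPM untreated and 122, 71.9 and 80.2 TPM treated.

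**Figure D2:**
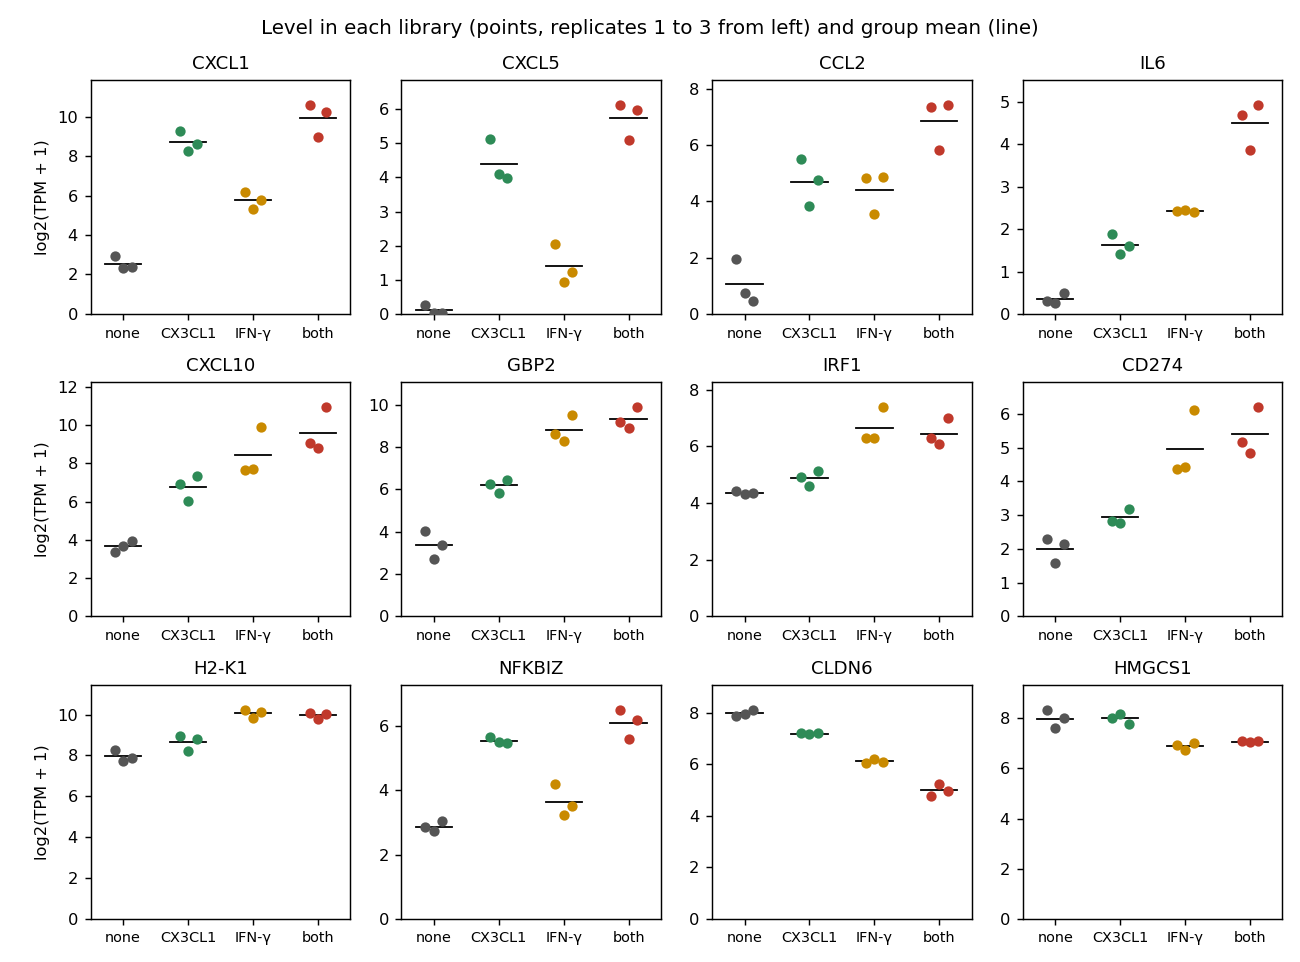
Levels of 12 genes in each of the 12 libraries as log2(TPM + 1), by treatment (none, CX3CL1, IFN-γ, both), with points for replicates 1 to 3 from left to right and a line at the mean of the 3 log2 values. CXCL1, CXCL5 and NFKBIZ are higher with CX3CL1 than with IFN-γ, and GBP2, IRF1, CD274 and H2-K1 are higher with IFN-γ than with CX3CL1. The mean is highest with both for CXCL1, CXCL5, NFKBIZ, GBP2, CD274, IL6 and CCL2. For IRF1 and H2-K1 it is lower with both than with IFN-γ alone. CLDN6 is lowest with both, and HMGCS1 is low in the IFN-γ and combined libraries.

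Interferon-induced GTPases rose without exception among those tested. All 17 of the guanylate-binding proteins and immunity-related GTPases that passed the filter, which are cell-autonomous defence proteins against vacuolar pathogens, were higher, with a median log2 difference of 4.07 and a range of 1.43 to 6.13, and all 17 stayed called without any 1 of the 6 libraries. GBP2B was at 8.59, 3.20 and 4.70 TPM without treatment and 360.1, 314 and 687 TPM with both agents (log2 difference 6.13, SE 0.40, adjusted p = 8.1e-07), GBP2 at 15.1, 5.49 and 9.39 TPM untreated and 582, 479 and 939 TPM treated, GBP3 at 18.9, 7.65 and 11.7 TPM untreated and 601, 571 and 869 TPM treated. GBP5 was at 0.557, 0.265 and 0.437 TPM untreated and 53.9, 57.2 and 179 TPM treated. In these genes the third treated library was the highest of its group. IIGP1 reached 55.4, 65.2 and 201 TPM from 2.05, 0.610 and 1.53 TPM (log2 difference 5.30, SE 0.56, adjusted p = 3.2e-05), and IRGM1, the regulatory member with the highest untreated level at 94.8, 46.2 and 71.5 TPM, reached 357, 349.5 and 510.3 TPM (log2 difference 2.54, SE 0.25, adjusted p = 1.8e-05). The raised GBP genes lie in 2 blocks, 5 of them at chr3:142493978-142638008 and 6 at chr5:105014150-105346472, and members of each block are near-identical in places, as are TGTP1 and TGTP2, so single values within a block are less certain than the level of the block.

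All 38 antiviral interferon-stimulated genes on the list rose, beside 8.21% of all genes tested, with a median log2 difference of 2.63. None of the 38 lost its call without any 1 library. The list was chosen with earlier results of these data known, so this count is a description and not a test. IFI27, described below, was outside the list and fell. ZBP1, a sensor of Z-form nucleic acids, went from 11.5, 2.93 and 6.41 TPM to 397, 326 and 414 TPM (log2 difference 5.73, SE 0.35, adjusted p = 5.0e-07). IFIT3, a member of the IFIT family of antiviral proteins, was at 8.13, 2.40 and 5.95 TPM untreated and 183, 229.6 and 368 TPM treated (log2 difference 5.38, SE 0.41, adjusted p = 2.7e-06), sharing sequence with IFIT3B. The ubiquitin-like modifier ISG15 was at 119, 96.7 and 114 TPM untreated and 624, 915 and 1095 TPM treated. RSAD2, the antiviral radical-SAM enzyme viperin, was at 4.62, 2.18 and 4.25 TPM untreated and 85.6, 108 and 248 TPM treated. MX1 rose from 0.547, 0.218 and 0.530 to 18.6, 41.5 and 70.7 TPM. IFI44L, which stood outside the list and among the 15 largest rises, was at 1.94, 0.554 and 0.812 TPM untreated and 59.9, 86.6 and 179 TPM treated (log2 difference 5.61, SE 0.45, adjusted p = 3.7e-06).

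In the receptor and JAK-STAT list 5 of 12 genes rose and 0 fell, and IFNGR1, IFNGR2, JAK1 and JAK2 were not called. IFNGR2 (log2 difference 0.50, adjusted p = 0.061) would be called higher without the first untreated library, and JAK2 (log2 difference 0.55, adjusted p = 0.066) without that one or the second combined one, and both would with the block. STAT2 went from 26.9, 16.1 and 24.6 to 153, 141 and 188 TPM (log2 difference 2.80, SE 0.22, adjusted p = 2.7e-06). The receptor chain IFNGR1 was not called at 28.02, 27.1 and 24.5 TPM untreated and 22.7, 24.3 and 22.6 TPM treated. The feedback inhibitor SOCS3 was at 14.8, 16.6 and 16.4 TPM untreated and 58.0, 32.0 and 43.0 TPM treated (log2 difference 1.38, SE 0.20, adjusted p = 0.00047), and STAT3 rose by 1.06 on the log2 scale. Of the 8 interferon regulatory factors tested, 6 rose, led by IRF7, the master regulator of type I interferon responses, at 112, 21.6 and 43.7 TPM untreated and 653, 676 and 775 TPM treated (log2 difference 3.85, SE 0.41, adjusted p = 3.1e-05). IRF1, a classical IFN-γ target, was at 20.5, 18.7 and 19.4 TPM untreated and 77.7, 66.9 and 126 TPM treated (log2 difference 2.10, SE 0.28, adjusted p = 0.00021), its partner BATF2 rose by 3.19, IRF5 by 2.42 and IRF9, the DNA-binding subunit of ISGF3, by 1.18 on the log2 scale.

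Of 23 MHC class I presentation genes tested, 20 rose and 0 fell (median log2 difference 1.86). B2M, the light chain of class I molecules and the most abundant of all genes called higher, was at 2994, 1457 and 1964 TPM without treatment and 9931, 6344 and 7303 TPM with both agents (log2 difference 1.92, SE 0.25, adjusted p = 0.00016), so that the lowest treated culture had more than every untreated one. The heavy chain H2-K1 was at 311, 212 and 231 TPM untreated and 1077, 892 and 1050.5 TPM treated (log2 difference 2.01, SE 0.19, adjusted p = 1.2e-05), with the reservation that class I heavy chains resemble each other closely. The inducible proteasome subunit PSMB9 went from 8.56, 4.49 and 8.22 to 159, 185 and 285 TPM (log2 difference 4.70, SE 0.33, adjusted p = 1.6e-06). PSMB8 went from 26.7, 8.83 and 15.6 to 199, 183 and 244 TPM, the peptide transporter TAP1 from 24.6, 15.1 and 17.7 to 105, 122 and 184 TPM. Its partner tapasin, TAPBP, went from 99.4, 63.6 and 63.8 to 689.7, 709 and 873 TPM. NLRC5, the transactivator of class I genes, rose by 2.45 on the log2 scale (adjusted p = 0.00015). The 3 tested members without a call were the general chaperones CALR, CANX and PDIA3, for example CALR at 2883, 1870.2 and 2944 TPM untreated and 4048, 2674 and 2814 TPM treated. Of 12 class II genes 4 passed the filter and 1 rose, the lysosomal protease CTSS at 0.142, 0.0322 and 0 TPM untreated and 1.74, 0.778 and 1.52 TPM treated, and the transactivator CIITA was below the filter with 0, 0 and 0 TPM untreated and 0, 0.0208 and 0.0259 TPM treated. CD74, the invariant chain, was at 1.76, 0.0919 and 0.753 TPM untreated and 12.5, 2.06 and 5.27 TPM treated with an adjusted p of 0.099, and would be called without the second treated library.

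**Figure D3:**
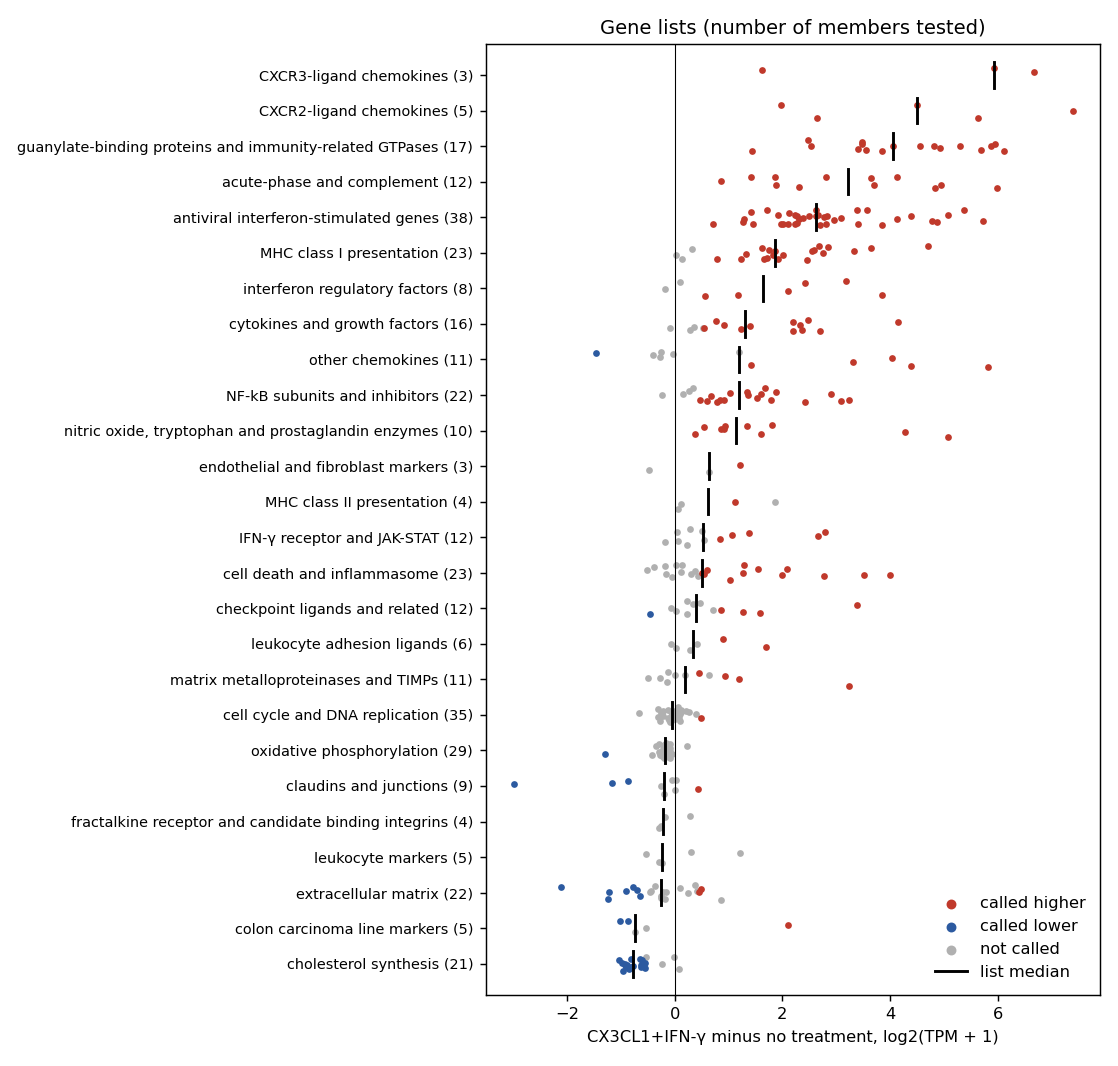
Log2 differences (CX3CL1+IFN-γ minus no treatment, in log2(TPM + 1), horizontal axis) of the tested members of each gene list, 1 row per list with the number tested in parentheses, ordered by the list median (black bar). Red members were called higher, blue lower and grey not called. The interferon-induced GTPases, antiviral genes and the CXCR2-ligand and CXCR3-ligand chemokines lie wholly to the right of 0, and other chemokines lie on both sides of it. Of the cholesterol synthesis genes 17 of 21 are blue.

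NF-kB family members, inhibitors and regulators rose in 18 of 22 cases, with a median log2 difference of 1.19. Without the third combined library the count was 14. NFKBIZ, an atypical inhibitor-like protein that co-activates IL6 and LCN2, was at 6.17, 5.68 and 7.18 TPM untreated and 89.9, 47.8 and 72.6 TPM treated (log2 difference 3.23, SE 0.24, adjusted p = 2.3e-06). NFKBIA, the classical feedback inhibitor, went from 21.4, 17.2 and 11.9 to 166, 86.3 and 149.9 TPM (log2 difference 2.90, SE 0.30, adjusted p = 2.6e-05). BCL3 went from 1.51, 1.23 and 0.797 to 29.4, 10.8 and 15.9 TPM (log2 difference 3.08, SE 0.31, adjusted p = 2.2e-05). RELB, a subunit of the non-canonical arm, went from 11.9, 13.8 and 10.3 to 54.5, 36.9 and 50.1 TPM. The precursor NFKB1 was at 73.7, 77.5 and 65.6 TPM untreated and 145, 142 and 159 TPM treated (log2 difference 1.03, SE 0.10, adjusted p = 1.2e-05). RELA was at 54.5, 60.5 and 56.5 TPM untreated and 89.4, 66.7 and 64.9 TPM treated and was not called (adjusted p = 0.1). TNFAIP3, the deubiquitinase A20, rose by 1.35 on the log2 scale.

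All 10 of the tested genes for nitric oxide, tryptophan and prostaglandin metabolism rose. NOS2, the inducible nitric oxide synthase, was listed at 0.0885, 0.00859 and 0 TPM without treatment and at 39.4, 5.15 and 31.9 TPM with both agents (log2 difference 4.29, SE 0.61, adjusted p = 0.00038), so the 3 treated cultures differed widely, with the second the lowest. ACOD1, which makes itaconate, was at 0.132, 0.0599 and 0.0502 TPM untreated and 35.2, 17.8 and 69.0 TPM treated (log2 difference 5.07, SE 0.53, adjusted p = 2.7e-05). IDO1, the first enzyme of tryptophan breakdown, had 0 TPM in each untreated library and 1.06, 0.441 and 1.05 TPM in the treated ones. Its relative IDO2 went from 1.80, 1.61 and 1.72 to 8.48, 6.01 and 11.9 TPM. PTGS2, which is COX-2, was at 169, 109.7 and 126 TPM untreated and 468, 362 and 393 TPM treated (log2 difference 1.605, SE 0.15, adjusted p = 1.2e-05). GCH1, which supplies the cofactor of nitric oxide synthases, rose by 1.35 on the log2 scale. Without the first or the third treated library, or the third untreated one, 8 of the 10 were called.

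Acute-phase and complement genes rose in 12 of 12 tested cases (median log2 difference 3.23). SAA3, an acute-phase apolipoprotein, was at 6.76, 1.15 and 4.98 TPM untreated and 636, 167 and 241 TPM treated (log2 difference 5.996, SE 0.59, adjusted p = 1.7e-05). LCN2, an iron-siderophore binder, was at 44.9, 3.62 and 19.3 TPM untreated and 1416, 188 and 473 TPM treated (log2 difference 4.95, SE 1.02, adjusted p = 0.0058), and in both genes the first treated library was the highest and the second the lowest. The alternative pathway factor CFB went from 0.949, 0.112 and 0.251 to 59.6, 21.6 and 44.5 TPM (log2 difference 4.83, SE 0.39, adjusted p = 3.7e-06). C3 went from 2.44, 0.468 and 0.658 to 75.3, 20.4 and 26.5 TPM, and the classical pathway protease C1S1 from 35.6, 14.5 and 16.1 to 309, 211 and 319 TPM (log2 difference 3.70, SE 0.31, adjusted p = 5.0e-06). Among cell death and inflammasome genes 12 of 23 rose and 0 fell. The inflammatory caspase CASP4 was at 4.79, 1.97 and 2.57 TPM untreated and 82.6, 40.7 and 72.7 TPM treated (log2 difference 4.01, SE 0.30, adjusted p = 2.5e-06). CASP1 was at 20.8, 12.5 and 15.4 TPM untreated and 67.1, 60.5 and 88.6 TPM treated, the death receptor FAS at 0.772, 0.410 and 0.408 TPM untreated and 20.8, 10.7 and 19.7 TPM treated (log2 difference 3.52, SE 0.33, adjusted p = 1.1e-05). The inflammasome sensor NLRP3 was at 0.592, 0.220 and 0.368 TPM untreated and 13.02, 4.04 and 11.01 TPM treated. The pore-forming executors GSDMD and MLKL rose by 1.28 and 1.26 on the log2 scale.

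Of the genes for checkpoint ligands and related surface molecules 4 of 12 rose and 1 fell. CD274, which encodes PD-L1, was at 3.86, 1.99 and 3.38 TPM untreated and 34.7, 27.4 and 72.2 TPM treated (log2 difference 3.40, SE 0.43, adjusted p = 0.00015). LGALS9, a ligand of TIM-3, went from 149.7, 109.8 and 129.7 to 434, 334 and 402 TPM (log2 difference 1.58, SE 0.14, adjusted p = 9.3e-06) and CD47, the signal that restrains phagocytosis, from 119, 108 and 82.7 to 236, 244 and 267 TPM (log2 difference 1.28, SE 0.14, adjusted p = 3.2e-05). PVR, the ligand of TIGIT and CD226, rose by 0.86 and the NKG2D ligand ULBP1 fell by 0.45 on the log2 scale, and both lost the call without the first or the third combined or the second or the third untreated library, ULBP1 also without the second combined one. PDCD1LG2 and CD86 did not pass the filter. The adhesion molecule VCAM1 was at 126, 109 and 104 TPM untreated and 333, 304 and 483 TPM treated (log2 difference 1.69, SE 0.21, adjusted p = 0.00013), and ICAM1 rose from 0.155, 0.0452 and 0.0673 to 1.42, 0.623 and 1.15 TPM, which is low for both groups. Matrix metalloproteinases rose in 4 of 11 tested cases, counted with the TIMP inhibitors, and the leukocyte adhesion ligands in 2 of 6. The collagenase MMP13 was at 2.00, 1.16 and 1.15 TPM untreated and 26.2, 15.5 and 25.1 TPM treated (log2 difference 3.24, SE 0.23, adjusted p = 1.9e-06). The stromelysin MMP10 was at 0.772, 0.239 and 0.587 TPM untreated and 2.63, 1.97 and 2.85 TPM treated, and MMP3 rose from 0.101, 0.0684 and 0.127 to 0.440, 0.551 and 0.515 TPM and MMP9 from 0.105, 0.0835 and 0.0534 to 0.668, 1.01 and 1.68 TPM. TIMP1 was at 327, 385 and 308 TPM untreated and 371, 350.3 and 303 TPM treated without a call. MMP13, MMP3 and MMP10 are neighbours at chr9:7272514-7510240.

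Falls were smaller than rises and were led by CLDN6, a tight-junction claudin, at 230.3, 245 and 275 TPM without treatment and 26.5, 36.1 and 29.8 TPM with both agents (log2 difference -2.99, SE 0.11, adjusted p = 1.0e-08), a mean 8.13-fold lower. Every treated library was far below every untreated one. Collagen III, COL3A1, was next at 11.1, 9.82 and 9.76 TPM untreated and 1.06, 2.63 and 1.30 TPM treated (log2 difference -2.12, SE 0.22, adjusted p = 2.7e-05). S100A4, a calcium-binding protein of motile cells, was the most abundant of the 15 largest falls at 3587, 6966 and 6404 TPM untreated and 1086, 2368 and 1539.8 TPM treated (log2 difference -1.78, SE 0.37, adjusted p = 0.0066). IFI27, in spite of its name as an interferon-inducible gene, went from 90.1, 117 and 97.2 to 21.6, 39.4 and 28.8 TPM (log2 difference -1.76, SE 0.20, adjusted p = 7.0e-05). The microsomal glutathione transferase MGST3 was at 94.0, 116 and 105 TPM untreated and 29.2, 39.7 and 24.8 TPM treated. The integrin-related ITGBL1 was at 69.4, 44.3 and 48.0 TPM untreated and 12.9, 21.8 and 13.6 TPM treated. The remaining 9 of the 15 were KLHL30, the proteoglycan OMD, the RAS-like GTPase RERG, KLHDC8A, KAZALD1, BPIFB4, the cadherin CDH26, the epoxide hydrolase EPHX1 and the carboxylesterase CES1G, with log2 differences from -1.75 to -1.48. Of these 15, EPHX1 lost its call without either of the combined libraries 2 and 3 or the untreated libraries 1 and 3.

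Cholesterol synthesis fell as a group, the only list of which most tested members were called lower, 17 of 21 with 0 called higher, beside 3.72% of all genes called lower, and a median log2 difference of -0.77. The count was 16 to 18 without any 1 library. HMGCS1, which condenses acetyl-CoA units at the entry of the pathway, was at 324, 192 and 255 TPM untreated and 134, 131 and 135 TPM treated (log2 difference -0.91, SE 0.16, adjusted p = 0.002). The squalene epoxidase SQLE went from 352, 251 and 290.1 to 186, 167 and 164 TPM, the sterol demethylase CYP51 from 304, 217 and 293 to 159.7, 142 and 145 TPM. NSDHL went from 132, 109.5 and 134 to 70.0, 64.8 and 65.6 TPM (log2 difference -0.89, SE 0.10, adjusted p = 7.1e-05). INSIG1, a sterol-regulated retention protein of the SREBP system, was at 155, 92.3 and 128 TPM untreated and 63.7, 51.7 and 63.4 TPM treated (log2 difference -1.03, SE 0.18, adjusted p = 0.0017). SREBF2, SC5D and HSD17B7 were among the tested members without a call. With IFN-γ alone, compared with the same untreated libraries, 17 of the 21 were called lower, beside 1.94% of all genes (median log2 difference -0.75), and with CX3CL1 alone 0 were, beside 0.168% of all genes (median 0.03). Set directly against CX3CL1 alone, 16 of the 21 were lower with both agents, beside 0.935% of all genes. Against IFN-γ alone the median difference was -0.01, and 0 of the 21 were called where the share over all genes was 0.362%.

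**Figure D4:**
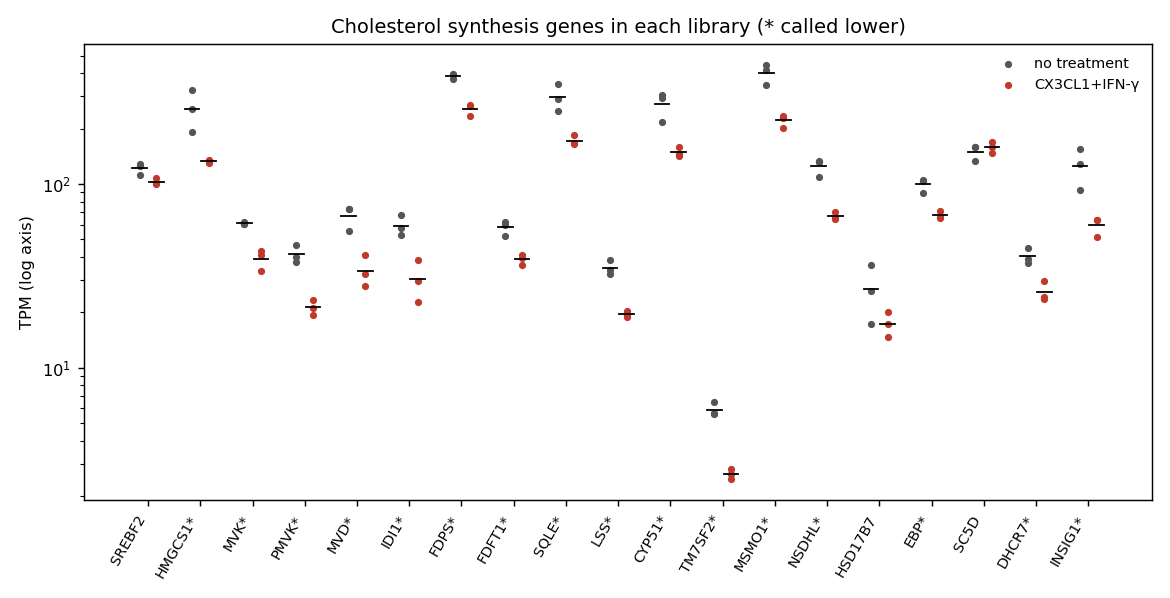
TPM (log axis) of 19 of the tested cholesterol synthesis genes in the 3 untreated libraries (grey points) and the 3 combined libraries (red points), with a line at each group mean, and an asterisk marks the 16 of them called lower. For nearly every marked gene the red points lie below the grey ones, with HMGCS1 falling from between 192 and 324 TPM to between 131 and 135 TPM.

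Extracellular matrix genes fell in 7 of 22 tested cases (31.8%) and rose in 2 (9.09%). Of all genes tested, 3.72% were called lower and 8.21% higher, and the share that rose was near the latter. The same shares are to be set beside the other counts of this paragraph. The 2 rises became 1 without the second combined library, 0 without the first or the third, without the second or the third untreated one and with quantile normalization, and with the block 5 rose and 11 fell. COL1A1 was at 80.1, 84.7 and 57.8 TPM untreated and 27.2, 41.2 and 25.1 TPM treated (log2 difference -1.24, SE 0.21, adjusted p = 0.0014). COL1A2 was at 869, 764 and 694 TPM untreated and 484, 492 and 452 TPM treated (log2 difference -0.70, SE 0.11, adjusted p = 0.0011). SPARC, a collagen-binding matrix protein, was at 295, 254 and 278 TPM untreated and 149, 189.5 and 149 TPM treated. CTGF, a matricellular protein, was at 41.9, 31.3 and 34.0 TPM untreated and 14.8, 19.1 and 10.99 TPM treated. Fibronectin, FN1, was not called at 376, 210.5 and 233 TPM untreated and 317, 151 and 179.9 TPM treated. Besides CLDN6, the related CLDN9 fell from 1.45, 2.18 and 2.14 to 0.173, 0.619 and 0.161 TPM and plakoglobin, JUP, from 4.95, 3.75 and 4.06 to 1.94, 2.20 and 1.52 TPM, which made 3 lower of 9 claudin and junction genes tested. 1 further gene was called higher, and the list had 0 higher in 5 of the 6 fits without 1 library and with median-ratio scaling. Among 29 oxidative phosphorylation genes 1 was called, NDUFA4, at 972, 1561 and 1318 TPM untreated and 424, 615 and 526 TPM treated (log2 difference -1.29, SE 0.19, adjusted p = 0.00051). Of 35 cell cycle and DNA replication genes 1 was called, MYC, higher, at 117, 129.7 and 152 and 186, 191 and 185 TPM (log2 difference 0.50), and it lost the call without any 1 of the combined libraries or without the first or the second untreated one.

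The combined libraries were then set against each single agent, which asks where adding the second agent changed the level. Against CX3CL1 alone 447 genes were higher (3.76%) and 111 lower (0.935%), and against IFN-γ alone 41 were higher (0.345%) and 2 lower (0.0168%), 43 in all (0.362%). Libraries with the same replicate number deviated together in these groups, and with the replicate as a block the counts were 1035 higher (8.71%) and 334 lower (2.81%) against CX3CL1, and 89 higher (0.749%) and 6 lower (0.0505%) against IFN-γ. Scaling moved the first split, to 360 higher and 185 lower with median-ratio scaling and 349 and 228 with quantile normalization. Fitted on the compared libraries alone, 344 and 20 genes passed. The count against CX3CL1 alone fell to 270 without the third combined library, and that against IFN-γ alone fell to between 16 and 26 without the first or the third combined library or without any 1 IFN-γ library. Of the 975 genes higher than untreated, 422 were also higher than with CX3CL1 alone and 41 also higher than with IFN-γ alone.

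Members of the interferon-type groups were set against each single agent. Of all genes tested, 3.76% were higher than with CX3CL1 alone, 8.71% with the block. All 17 GBP and IRG genes were higher than with CX3CL1 alone (median 2.66) and against IFN-γ alone 0 were called, where the share over all genes was 0.362%, so that this count says nothing about the group. The median difference from IFN-γ alone was 0.23. In pairs of the same replicate number, GBP2 was at 389.8, 311 and 734 TPM with IFN-γ alone and 582, 479 and 939 TPM with both, higher with both in 3 of 3 pairs (adjusted p = 0.98, or 0.62 with the block). Of the antiviral genes 27 of 38 were higher than with CX3CL1 alone, 35 with the block. For MHC class I, 19 of 23 were higher than with CX3CL1 and the median difference from IFN-γ alone was -0.05, against -0.0030 over all genes. H2-K1 had 1203, 918 and 1122 TPM under IFN-γ alone, 486, 299 and 446 TPM under CX3CL1 alone and 1077, 892 and 1050.5 TPM with both. CD274 was at 19.6, 20.4 and 68.1 TPM with IFN-γ alone and 6.12, 5.79 and 8.13 TPM with CX3CL1 alone, and the combined libraries were higher than those with IFN-γ alone in 3 of 3 pairs (log2 difference 0.43, adjusted p = 0.98, or 0.72 with the block). IRF1 and H2-K1 were lower with both in 3 of 3 pairs, and neither was called with or without the block.

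CXCR2 ligands showed the other arrangement. All 5 were higher than with IFN-γ alone (median 3.19), beside 0.345% of all genes. Against CX3CL1 alone 4 of 5 were higher (median 1.33), 5 with the block, beside 3.76% of all genes, or 8.71% with the block. CXCL1 was at 620.3, 305 and 393 TPM with CX3CL1 alone and 71.7, 39.0 and 54.5 TPM with IFN-γ alone, and its combined libraries differed from CX3CL1 alone by 1.22 on the log2 scale (adjusted p = 0.098, or 0.0023 with the block). NFKBIZ was at 49.5, 44.0 and 43.3 TPM with CX3CL1 and 17.3, 8.45 and 10.4 TPM with IFN-γ, and was higher with both agents than with IFN-γ by 2.46 (adjusted p = 0.00033). CCL2 stood at 44.1, 13.2 and 26.2 TPM with CX3CL1 and 27.5, 10.6 and 27.8 TPM with IFN-γ, with a difference from IFN-γ alone of 2.46 that passed the test with the block (adjusted p = 0.0031) but not without it (adjusted p = 0.12). FAS, BCL3, SAA3 and LCN2 were likewise higher than with IFN-γ alone with the block only. CCL17, a CCR4 ligand, was the reverse, at 19.1, 5.89 and 13.3 TPM with CX3CL1 alone, 1.22, 0.169 and 0.167 TPM with IFN-γ alone and 5.22, 0.805 and 1.17 TPM with both, lower than with CX3CL1 alone by a log2 difference of -2.11 (adjusted p = 0.025).

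In all, 18 genes, 0.152% of those tested, were higher with both agents than with each agent alone, and 57 (0.48%) were with the block, which held all 18. The count was 6 without the third combined library, 8 without the first, 34 without the second, 9 and 11 without the second and the third IFN-γ library, and 7 on the compared libraries. Leaving the fold threshold aside, CXCL2, CXCL3, PPBP, CCL20, IL6 and IL13RA2, the decoy receptor of IL13, kept both calls under every alternative tried. The other 12 lost at least 1 of the calls. With a log2 difference of at least 1 required, 13 of the 18 remained, and PPBP, 0.71 above CX3CL1 alone, did not. Ranked by the smaller of their 2 differences, NOS2 came first, at 3.69, 0.368 and 1.40 TPM with CX3CL1 alone, 2.29, 0.318 and 1.07 TPM with IFN-γ alone and 39.4, 5.15 and 31.9 TPM with both (log2 differences 3.02 and 3.28), and its call against IFN-γ was lost without any 1 of the first or the third combined or the 3 IFN-γ libraries. CXCL3 followed, at 3.99, 3.25 and 5.90 TPM, 1.28, 1.08 and 2.60 TPM and 16.3, 19.4 and 36.2 TPM in the same order (differences 2.16 and 3.19). IL6 was at 2.68, 1.67 and 2.03 TPM with CX3CL1, 4.39, 4.50 and 4.27 TPM with IFN-γ and 24.9, 13.6 and 29.6 TPM with both (differences 2.87 and 2.07). CXCL2 differed by 1.96 and 2.36. For IL13RA2 the levels were 5.63, 4.74 and 3.98 TPM, 3.88, 4.52 and 3.24 TPM and 20.9, 21.5 and 19.1 TPM, against 0.408, 0.364 and 0.290 TPM untreated. IL1A, the transcript U90926, MMP13, the placental lactogen relative PRL2C2 and CXCL5 completed the first 10, and PRL2C2 belongs to a multicopy family whose reads may be shared. SLPI, GSAP, HCAR2, SOD2, PLK2, PLSCR1, CCL20 and PPBP made up the rest.

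**Figure D5:**
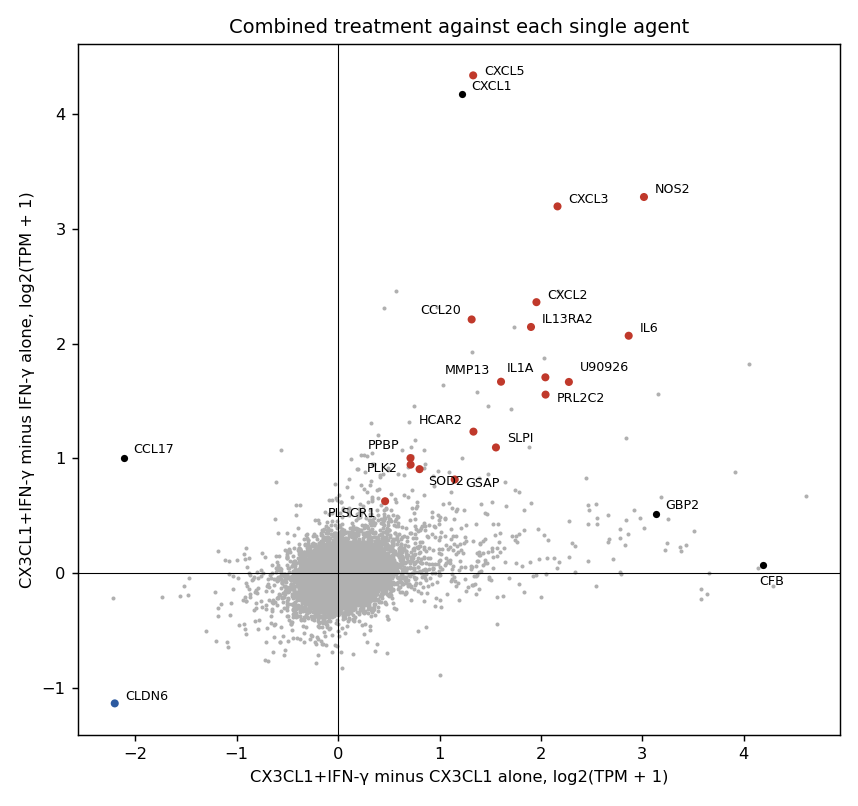
Each point is 1 gene, plotted by the difference of CX3CL1+IFN-γ from CX3CL1 alone (horizontal axis) and from IFN-γ alone (vertical axis), both as log2(TPM + 1), and the axes share the combined libraries. Red points are the 18 genes called higher in both comparisons and the blue point is CLDN6, called lower in both, while GBP2 and CFB (black) lie far to the right near 0 on the vertical axis and CXCL1 (black) lies high.

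A single gene was lower with both agents than with each alone, CLDN6, at 147, 141 and 145 TPM with CX3CL1 alone, 65.8, 71.6 and 67.3 TPM with IFN-γ alone and 26.5, 36.1 and 29.8 TPM with both (log2 differences -2.20 and -1.13, adjusted p = 8.7e-07 and 0.00033). Whether the effect of one agent differed with the other present was tested as an interaction on the log2 scale, where 0 means that the differences of the single agents add up. By limma 0 genes passed, 273 of 11878 had an unadjusted p below 0.05, and 11 passed without the first untreated library. With the replicate as a block 52 passed, 3 of them positive. The share with an unadjusted p below 0.05 was smaller than the 0.05 that would arise with no interaction. The absence of calls without the block does not show that the differences add up. Without the block, the interaction was -0.35 (SE 0.16) for CLDN6, 0.79 (SE 0.31) for IL6, 2.01 (SE 0.87) for NOS2 and -1.999 (SE 0.54) for CXCL1. Untreated IL6 and NOS2 lay below 1 TPM, where log2(TPM + 1) understates the rise with a single agent. The size and sign of their interactions may therefore depend on the pseudocount, and they are not evidence of more than multiplicative effects. With the block, the interaction of CXCL1 passed the test (SE 0.27, adjusted p = 0.014), as did those of GBP2, GBP3 and ZBP1, all negative, although untreated and combined libraries did not pair by their numbers. With 3 libraries a group, these SEs limit the departures from addition that could be detected.

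By level, the 10 most abundant genes called higher under the combined treatment were B2M, IFITM3, MT2, BST2, LY6E, ODC1, SQSTM1, CXCL1, H2-K1 and CXCL10. IFITM3, an antiviral membrane protein, was at 1538, 876 and 1064 TPM untreated and 3592, 3570.1 and 3961 TPM treated. BST2, tetherin, was at 778, 318 and 366 TPM untreated and 1356, 1959 and 2289.96 TPM treated. The metallothionein MT2 went from 1117, 1109 and 1331 to 3481, 2678 and 3118 TPM (log2 difference 1.38, SE 0.13, adjusted p = 1.4e-05), the autophagy receptor SQSTM1 from 617, 465 and 548 to 1522, 881 and 1159 TPM, LY6E from 1045, 880.03 and 1029 to 1752, 1518 and 1584 TPM, and ODC1, the first enzyme of polyamine synthesis, from 784, 873 and 893 to 1498, 1333 and 1259 TPM (log2 difference 0.68, SE 0.10, adjusted p = 0.00065). ODC1 was at 1269, 1456 and 1281 TPM with CX3CL1 alone and 869.9, 935 and 856 TPM with IFN-γ alone, in contrast to IFITM3 with 2095, 1504 and 2028 TPM and 3734, 3447 and 3798 TPM. In every one of these 10 genes each combined library lay above each untreated library. They were picked from the 975 genes called higher, of which 971 did so, and this held for 18.6% of all genes tested.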

How the data were processed

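mRNA of CT26 cultures was converted to strand-specific libraries with a poly(A)-selecting kit and sequenced, 3 libraries for each of 4 treatments. The submitters' processing notes name STAR 2.7.3a, DESeq2 1.22.1 and the genome build mm10. The authors deposited gene-level TPM, in which each library sums to 1000000, so the read depth is unknown and no counting error could be given. The sum per library was checked, and 10613 to 10824 symbols reached 1 TPM per library. Of the symbols, 6747 were at 0 in all libraries, and 26 carried date-like names and 2 names occurred more than once.

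Values were taken as log2(TPM + 1) and fitted with limma 3.58.1 in R 4.3.3 (lmFit, eBayes with an intensity trend) over all 12 libraries, with Benjamini-Hochberg adjustment over the 11878 genes tested within each contrast and a threshold of 0.05. The test was two-sided and its code was tested on simulated data. The count test named for these data was not used here, because TPM are not counts. Named genes were the 15 largest rises and 15 largest falls without overlap of libraries, the 10 genes with the largest smaller difference from the single agents, the 10 most abundant genes called higher, and members of 26 gene lists of 518 symbols. The members and lists were chosen with earlier results of these data known, so counts of list members called are descriptions and not tests.

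Replicate numbers pair libraries where the deviations of same-numbered libraries from their group means correlated above 0.1 in every pair. This held between CX3CL1 and combined libraries (r = 0.351, 0.353 and 0.428) and between IFN-γ and combined libraries (0.630, 0.635 and 0.649). It did not hold between untreated and combined libraries (0.312, 0.447 and 0.032). Motifs were searched on both strands in RefSeq promoter windows of GRCm38.p6, and 9343 of the tested genes matched by symbol. Alternatives were the pseudocount, the filter, scaling, the trend, the block, the libraries fitted, a fold threshold and leaving out each library. A few members of the lists are counted but not reported here by name.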

Additional observations from a re-analysis of the deposited data

How the results depend on the processing

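Against no treatment the count of 1417 genes was 924 to 1345 when 1 library was left out, lowest without the third combined one, 2464 with the replicate block (1578 higher and 886 lower) and 476 with a log2 difference of at least 1 in size. The untreated and combined libraries share a number but did not pair by the check, and the third combined library did not correlate best with its own number. Against CX3CL1 alone the count of 558 was 270 to 668 without 1 library, 1369 with the block, 344 on the compared libraries and 230 with the fold threshold. Against IFN-γ alone the count of 43 was 16 to 54, 95 with the block, 20 on the compared libraries, 28 with no filter and 24 with the fold threshold. Genes higher than with each agent numbered 6 to 34 without 1 library in place of 18, lowest without the third combined one and highest without the second, 57 with the block and 7 on the compared libraries. Interactions numbered 0 to 11 without 1 library, 52 with the block and 1 with quantile normalization. The cause of these changes was not tested.

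Of the 155 genes named, 136 were called against no treatment. Leaving the fold threshold aside, 131 of these kept the call under every alternative that tested them. The 5 that lost it under at least 1 of those alternatives were VIM, EPHX1, PVR, ULBP1 and MYC. Some others were called with a log2 difference below 1 in size, among them HMGCS1, SQLE and COL1A2, and so did not reach the fold threshold. Genes not called that an alternative called were IFNGR2, JAK2, KRT20, CD74, HSD17B7 and FN1. The sign of the log2 difference changed for 5 genes, none of which was called. Without 1 library, the difference was -0.14 to 0.54 for CD68, -0.0031 to 0.27 for PDIA3, -0.0038 to 0.13 for SC5D, -0.034 to 0.13 for CANX and -0.060 to 0.10 for TIMP1. It was -0.0085 for CANX and -0.029 for TIMP1 with median-ratio scaling, and -0.017 and -0.039 with quantile normalization. The 3 libraries a group, the unknown depth and the 1 cell line limit these comparisons. Values of 0 cannot be read as absence.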
